A study of Homo sapiens with 2 samples.

Results

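The miRNAs of the imprinted clusters on chromosomes 14 and 19 were examined on Agilent human miRNA arrays of HepG2 cells, a hepatocellular carcinoma line. Members were chosen by name, from the miRNA numbers that belong to each cluster. No measured value entered that rule, though members were chosen with earlier results of these data known. Of 2549 human miRNAs on the array, 141 were members, 93 of the chr14 cluster on 236 probes and 48 of the chr19 cluster on 105 probes. All 45 miRNA numbers of the chr14 cluster and 16 of 17 numbers of the chr19 cluster were found on the array, and miR-527 was not analysed here. RefSeq placed the hairpin of 1 member, miR-544b, on chromosome 3, which leaves 92 members of the chr14 cluster by position.

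One group of HepG2 cells received the adenoviral control vector Ad-NC and the other the adenoviral vector Ad-uc.372, each for 48 h, and total RNA was hybridized to 1 array per vector. The title of the series names overexpression of uc.372, an ultraconserved long noncoding transcript. The sample labels carry no suffix that tells an overexpressing from an inhibitor vector, so the direction rests on the title and the text of the study. The axes of a supplementary plot of the study carry the inhibitor suffix instead, and values are therefore given by vector label, as Ad-uc.372 minus Ad-NC. Both groups were the same unselected line without any other treatment in the labels, and both arrays shared a slide and a scan. With 1 array per vector there was no test across samples, no p-value is given, and every error is technical. The error of a probe's signal is the SD over its spots, and that of a log2 difference combines the spot variances of both arrays, averaged over the probes of the miRNA. In bulk RNA, fewer cells with a miRNA and less of it per cell cannot be told apart.

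Imprinted genes are transcribed mainly from the chromosome of one parent. The chr14 cluster lies in the DLK1-MEG3 region, where the miRNAs are processed from long noncoding transcripts of the maternal chromosome, and it is active in embryo, placenta and brain. The chr19 cluster is found in primates, is transcribed from the paternal chromosome and is known above all from placenta. Many of its miRNAs resemble those of embryonic stem cells in the seed, bases 2 to 8 of a mature miRNA, which pair with target mRNAs. In liver tumours, activity of either cluster has been described in a subset of cases.

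The mature sequences of the hairpins that carried a signal are shown first, in RefSeq letters from GRCh38.p14, 5′ to 3′, with the seed in capitals. Both hairpins lie on the plus strand of chromosome 14, and each gives an arm that was measured and an arm that was not.
miR-494-3p: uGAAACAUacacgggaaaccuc
miR-494-5p: aGGUUGUCcguguugucuucucu
miR-134-5p: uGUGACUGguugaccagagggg
miR-134-3p: cCUGUGGGccaccuagucaccaa

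Nearly all members were below the detection limit with either vector, and the same 2 members of the chr14 cluster, miR-494-3p and miR-134-5p, were detected with both. A miRNA was counted as detected where at least 50% of the spots of at least 1 of its probes were flagged well above background by the image analysis software. With Ad-NC, 2 of 93 members of the chr14 cluster (2.15%) were detected, whereas 9.26% of all human miRNAs of the array were. With Ad-uc.372, 2 of 93 members (2.15%) were detected, beside 10.2% of all human miRNAs. The detection limit was lower on that array. With 1 limit for both arrays, 9.26% of all human miRNAs were detected with Ad-NC and 9.06% with Ad-uc.372, and the same members were. In the chr19 cluster, 0 of 48 members were detected with Ad-NC and 0 of 48 with Ad-uc.372. Both clusters were therefore below the share over the whole array, and no member was detected with 1 vector only. Detection was called from the flags of single spots, so their counts are not separate evidence. In the chr14 cluster 39 of 1811 spots (2.15%) were flagged with Ad-NC and 41 of 1813 spots (2.26%) with Ad-uc.372, against 7.65% and 8.48% of all spots. In the chr19 cluster none of 942 spots was flagged with Ad-NC and none of 923 with Ad-uc.372.

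Low-numbered miRNAs, which were described early and include most conserved families, formed a closer reference than the whole array. Of 896 miRNAs outside the clusters with numbers up to the highest number among the members, 139 (15.5%) were detected with Ad-NC and 156 (17.4%) with Ad-uc.372. The hairpins of miR-371a, miR-371b, miR-372 and miR-373 lie beside the chr19 cluster and are active in embryonic stem cells. None of their 8 miRNAs was detected on either array. Likewise, 0 of 10 miRNAs of the miR-302 group, a marker of pluripotent cells, was detected. Of 9 miRNAs in or near other imprinted genes, 2 were detected with both vectors. They were miR-483-5p of IGF2, at 62.6 with Ad-NC and 53.0 with Ad-uc.372 by its brightest probe, and miR-296-5p near GNAS, at 48.1 and 52.6. The opposite arms of these miRNAs, both arms of miR-675 of H19 and of miR-335 of MEST, and miR-298 near GNAS were not detected. In the miR-17-92 cluster, a non-imprinted cluster that promotes proliferation, 9 of 12 miRNAs were detected with Ad-NC and 10 of 12 with Ad-uc.372. The brightest probe of the additional miRNA, miR-92a-1-5p, was dimmer with Ad-uc.372 (17.7) than with Ad-NC (19.6), and the limit was lower with Ad-uc.372. All of these shares describe 2 arrays. Each array has its own limit, so the counts of the 2 vectors are not compared.

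**Figure D1:**
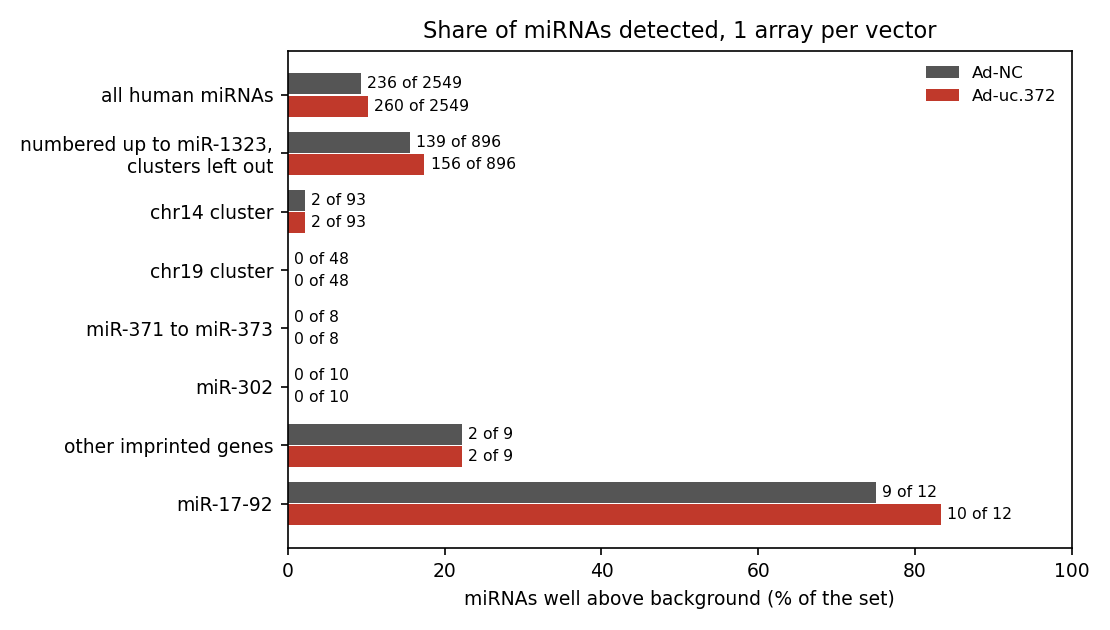
Share of miRNAs detected (x axis, percent of each set) in the imprinted clusters and in the sets compared with them (y axis), for the array of each vector, with the number detected beside each bar. The chr14 bars stand at 2.15% and the chr19 bars at 0, below the 9.26% and 10.2% of all human miRNAs.

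The identity of the cells was checked against marker miRNAs. Of 5 hepatocyte markers, 3 were detected with both vectors, namely miR-192-5p, miR-194-5p and miR-215-5p. miR-122-5p, the main miRNA of adult hepatocytes, was not well above background, at 5.09 with Ad-NC and 5.08 with Ad-uc.372, and neither was miR-885-5p. None of 15 markers of blood, endothelium, fibroblasts and smooth muscle, muscle, neurons and pluripotent cells was detected on either array.

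miR-494-3p gave the brightest probes among the members. On its first probe, 10 spots with Ad-NC ranged from 1510 to 1699 with a median of 1626, and 10 spots with Ad-uc.372 ranged from 1661 to 1943 with a median of 1779. On its second probe, the spots ranged from 661 to 846 with a median of 799 with Ad-NC, and from 690 to 970 with a median of 930 with Ad-uc.372. Before scaling, the spots with Ad-uc.372 were thus mostly higher, and the spots of both arrays overlapped on each probe. The mean signals were 1617 ± 59.7 and 1777 ± 91.0 (SD, 10 spots each) on the first probe and 775 ± 63.5 and 878 ± 106 on the second. All 20 spots were flagged well above background on each array.

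The arrays differed in overall brightness, with a reference signal, the 75th percentile over probes detected on both, of 304.6 with Ad-NC and 356.5 with Ad-uc.372. Relative to that reference, the level of miR-494-3p was 1.88 on the log2 scale with Ad-NC and 1.80 with Ad-uc.372. The log2 difference, Ad-uc.372 minus Ad-NC, was -0.073, a ratio of 0.951, with a combined SD between spots of 0.17. Its probes gave log2 differences of -0.092 and -0.053. The difference was smaller than the SD between single spots, which is not the error of a mean over spots. The sign of the difference depended on the scaling: no scaling gave 0.15 and scaling to the median 0.030. Scaling to the 75th percentile of all probes gave 0.45. Most probes were undetected and raised to the limit, so that percentile was the detection limit of each array. Among 229 miRNAs measured on both arrays the median log2 difference was -0.17, with an SD of 0.29 over miRNAs. miR-494-3p lay 0.094 above that median. Each of these scalings shifts all miRNAs of an array by the same amount, so this distance could not change between them.

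miR-134-5p, known from neurons as a brain-enriched miRNA that limits the size of dendritic spines, gave a dim but measured signal. On its first probe, 9 spots with Ad-NC ranged from 45.8 to 63.0 with a median of 52.4, and 10 spots with Ad-uc.372 ranged from 51.5 to 69.0 with a median of 59.9. On its second probe, the spots ranged from 42.0 to 57.9 with a median of 51.0 with Ad-NC, and from 49.9 to 70.7 with a median of 61.8 with Ad-uc.372. The ranges overlapped on both probes, with the medians higher on the brighter array. The mean signals were 52.6 ± 4.90 and 60.3 ± 4.82 on the first probe and 49.9 ± 4.83 and 60.2 ± 6.47 on the second.

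After scaling, the level of miR-134-5p was -2.58 on the log2 scale with Ad-NC and -2.57 with Ad-uc.372. The log2 difference was 0.0068, a ratio of 1.00, with a combined SD between spots of 0.19. Its probes disagreed in sign, at -0.028 and 0.042. Without scaling the log2 difference was 0.23, with normexp background correction -0.10 and in the deposited normalized table -0.094. With the 75th percentile over all probes, here the detection limit of each array, it was 0.53. Relative to the median of the 229 miRNAs, miR-134-5p lay 0.17 higher, less than its SD between single spots of 0.19. That SD is not the error of a mean over spots. For comparison, the 20 miRNAs closest to miR-134-5p in signal had a median of -0.11, and the 20 closest to miR-494-3p a median of -0.18.

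Neither member reached the 1.5-fold size that the study used as its threshold. Of the 229 miRNAs measured on both arrays, 3 (1.31%) were past 1.5-fold higher with Ad-uc.372, 6 (2.62%) past 1.5-fold lower and 9 (3.93%) past it in either direction. Among the members, 0 of 2 were past it in either direction. For the other 139 members no difference between the vectors can be given from spot signals, because both arrays were below the limit.

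**Figure D2:**
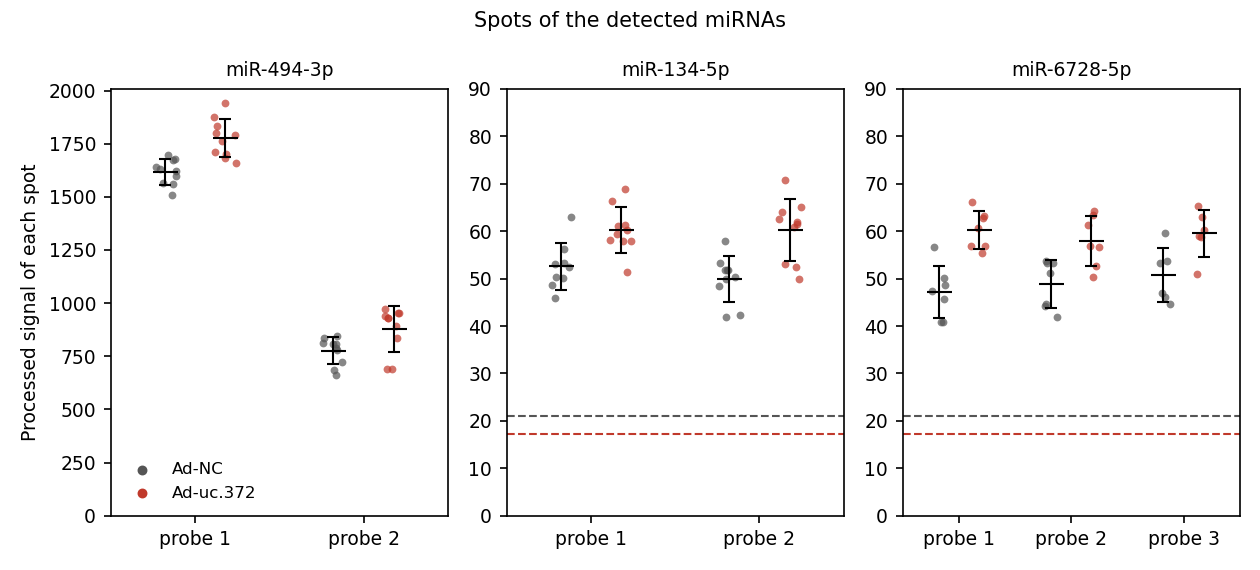
Processed signal of every spot (y axis) on each probe (x axis) of miR-494-3p, miR-134-5p and miR-6728-5p, with mean and SD over spots in black and the dimmest spot well above background of each array as a dashed line in the panels that reach it. Spots of both vectors overlapped on each probe, and miR-134-5p and miR-6728-5p lay in the same range of signal.

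A stretch of sequence was shared between miR-134-5p and a detected miRNA outside the clusters, miR-6728-5p, which was named after its values were seen. Their last 11 bases, in capitals, are the same.
miR-134-5p: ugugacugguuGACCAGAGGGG
miR-6728-5p: uugggaugguagGACCAGAGGGG
The 3 probes of miR-6728-5p had mean signals of 47.2 to 50.7 with Ad-NC and of 58.0 to 60.3 with Ad-uc.372, all well above background. The log2 difference of miR-6728-5p was 0.053 with a combined SD between spots of 0.20. Signals of different probes do not rank miRNAs, and whether RNA of one miRNA bound the probes of the other was not tested. An end of 11 or more bases shared with another detected miRNA was found in 20 of 2248 miRNAs with a sequence (0.89%). It was found in 15 of 230 detected miRNAs and in 5 of 1885 undetected miRNAs outside the clusters. The cut-off of 11 was the length seen in miR-134-5p itself. The longest such end in 133 undetected members was 8 bases with a median of 4, and in miR-494-3p it was 4 bases. A shared run of 11 or more bases at any position was more common, in 5.96% of the 2248 miRNAs. Such a run was found in 66 of 230 detected miRNAs and in 68 of 1885 undetected miRNAs outside the clusters. The longest run in the undetected members was 10 bases, including runs shared with miR-6728-5p. Among miRNAs with a sequence, miR-134-5p matched 1 outside the clusters in the seed, miR-3118, which was not detected, and miR-494-3p matched none.

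The opposite arms of both hairpins were below the limit. The probes of miR-494-5p had mean signals of 1.20 to 1.67 with Ad-NC and of 1.05 to 1.17 with Ad-uc.372, and none of its 19 and 20 spots was flagged. The probes of miR-134-3p lay between -3.51 and -2.74 with Ad-NC and between -1.90 and -0.90 with Ad-uc.372, with none of its 20 and 19 spots flagged. Values below 0 arise because the background was subtracted. Over the chr14 cluster, 1 of 43 members named 5p, 1 of 42 named 3p and 0 of 8 without an arm in the name were detected. In the chr19 cluster the counts were 0 of 16, 0 of 24 and 0 of 8.

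The order of the hairpins along chromosome 14 was taken from RefSeq. All 52 hairpins of the cluster had an entry on the array and 44 had 2 or more mature miRNAs there, and a detected miRNA came from 2 of them. MIR494 is the 20th hairpin and MIR134 the 40th. The neighbours of MIR494, MIR329-2 and MIR1193, had no probe mean above 3.51 and -0.73 on either array. The neighbours of MIR134, MIR382 and MIR668, had none above 0.72 and 3.98. The detected hairpins thus stood alone in the cluster, with undetected hairpins on both sides. The 10 hairpins up to the end of MEG8 give 18 members, of which 0 were detected, and the 42 hairpins after it give 74 members, of which 2 (2.70%) were detected.

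**Figure D3:**
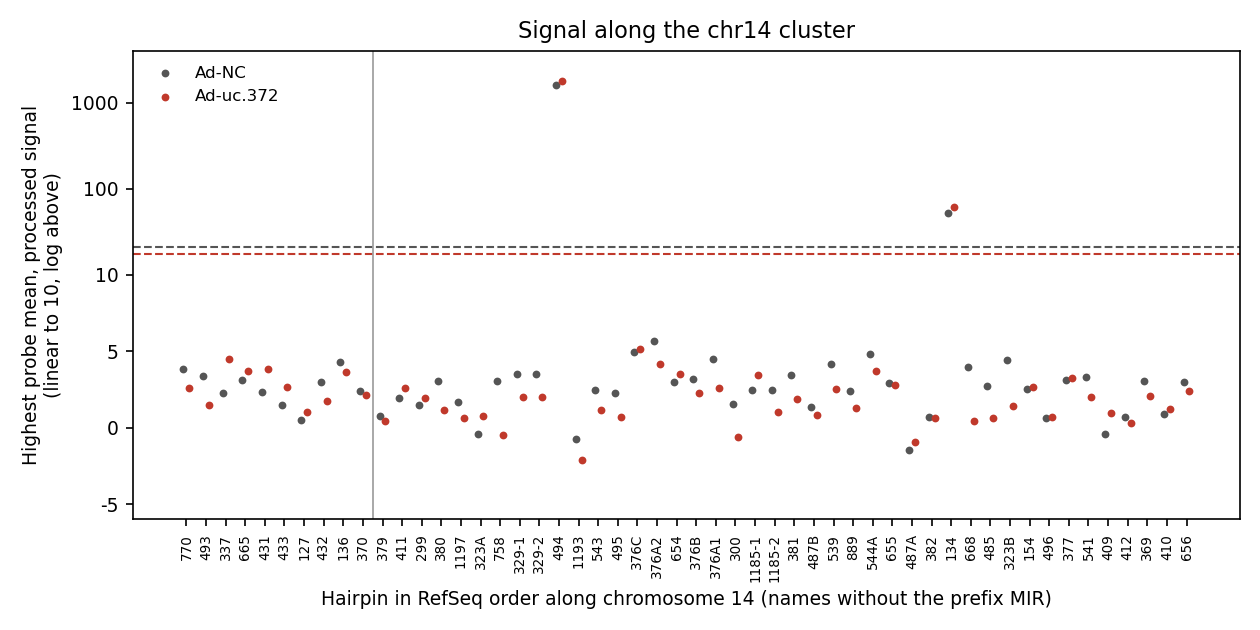
Highest probe mean of each hairpin (y axis, processed signal, linear to 10 and logarithmic above) against its order along the chr14 cluster (x axis, 52 hairpins), for both vectors. Dashed lines are the dimmest spot well above background of each array and the vertical line marks the end of MEG8. MIR494 and MIR134 lie above the dashed lines and the others below.

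Well-studied members of the chr14 cluster were at background. miR-127-3p, which lies antisense to the retrotransposon-derived gene RTL1, had probe means of -0.076 to 0.48 with Ad-NC and of -0.94 to 1.05 with Ad-uc.372. miR-379-5p, from the first hairpin after MEG8, had probe means of -0.11 to 0.79 and of -0.89 to -0.26. miR-409-3p ranged from -1.12 to -1.06 with Ad-NC and from -0.85 to -0.14 with Ad-uc.372. All of these values were below the detection limit. miR-376a-3p, of a group known for editing of adenosines in the seed, had probe means of -3.18 to -2.09 with Ad-NC and of -1.33 to 1.89 with Ad-uc.372. miR-381-3p lay between 1.18 and 3.45 with Ad-NC and between -1.15 and 1.86 with Ad-uc.372. Of 32 well-studied chr14 members listed for naming, 2 were detected on each array, and of 17 listed chr19 members 0 were. miR-519a-3p and miR-524-5p were listed but not analysed here.

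A single flagged spot was seen outside the detected members. On 1 probe of miR-665, 1 of 5 spots was flagged with Ad-uc.372 at a signal of 20.6, while the probe mean was 3.67 with Ad-uc.372 and 2.52 with Ad-NC. No fold is given, since that mean lies below the limit.

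The undetected members were then set against the limit, the dimmest spot flagged well above background, which was 21.1 with Ad-NC and 17.3 with Ad-uc.372. The 232 undetected probes of the chr14 cluster had a median signal of 0.30 with Ad-NC, from -4.73 to 5.64, and of -0.089 with Ad-uc.372, from -4.84 to 5.13. The highest were miR-376a-2-5p with Ad-NC and miR-376c-5p with Ad-uc.372. The 105 probes of the chr19 cluster had a median of 1.20 with Ad-NC, from -3.48 to 6.33, and of 0.93 with Ad-uc.372, from -3.55 to 4.74. The highest were miR-520d-3p with Ad-NC and miR-519e-3p with Ad-uc.372. No probe mean of an undetected member reached the limit on either array. All undetected human probes had medians of 0.36 with Ad-NC and 0.043 with Ad-uc.372. Signals at this level are background, and no order of abundance can be read from them. Of the chr19 probes, 26.7% and 30.5% were at or under 0, against 44.8% and 51.7% of the undetected chr14 probes and 43.8% and 49.3% of all undetected probes.

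Negative control spots, which match no human sequence, had a mean signal of 3.94 ± 3.77 with Ad-NC (SD, 989 spots) and of 3.48 ± 3.39 with Ad-uc.372 (982 spots). In each cluster few probes passed the median of these spots. On each array, 11 undetected chr14 probes (4.74%) and 5 chr19 probes (4.76%) did, against 13.2% and 12.2% of all undetected probes. Over probes, the undetected signals of both arrays correlated with a Pearson r of 0.53 for chr14 (232 probes) and 0.50 for chr19 (105 probes). Over 5432 probes undetected on both arrays r was 0.79. These correlations are across probes, which share the array design and base composition, and are given as descriptions.

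**Figure D4:**
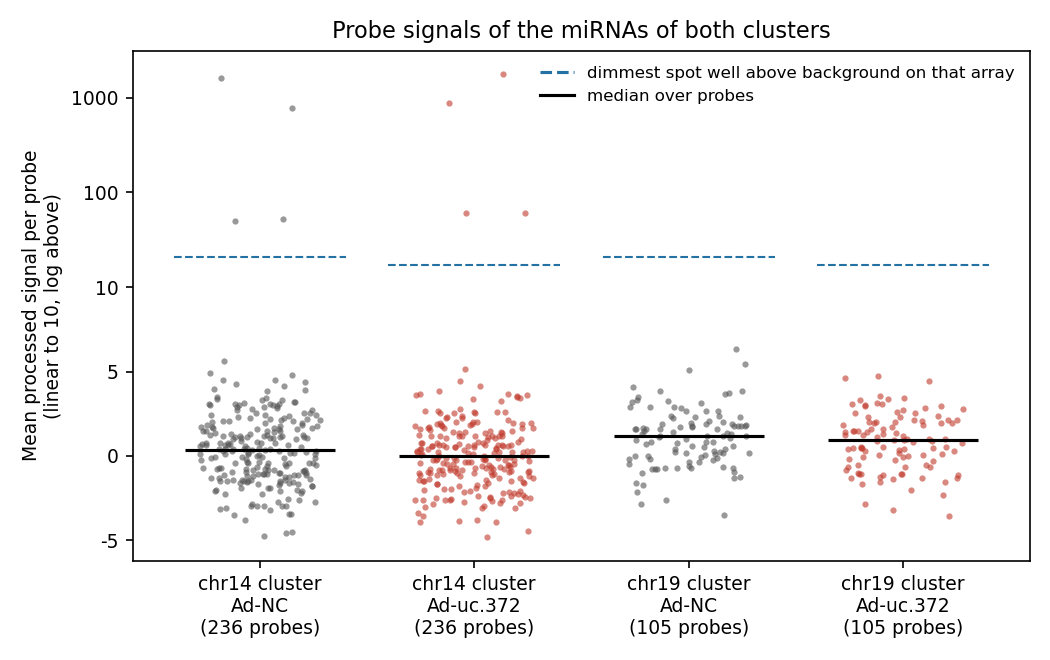
Mean processed signal of each probe (y axis, linear to 10 and logarithmic above) by cluster and vector (x axis), with the median over probes in black and the dimmest spot well above background as a dashed line. Only the 4 chr14 probes of miR-494-3p and miR-134-5p lie above the dashed lines on each array.

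A more lenient flag of the software, for a spot that is positive and significant against its local background, counted more members. At least 50% of the spots of a probe carried it in 15 of 93 chr14 members (16.1%) with Ad-NC and in 12 (12.9%) with Ad-uc.372. In the chr19 cluster 8 of 48 members (16.7%) and 11 (22.9%) carried it. Over all human miRNAs 27.2% and 28.2% did, above the share of each cluster. On both arrays it was carried by 6 chr14 members (6.45%) and 3 chr19 members (6.25%), against 21.9% of all miRNAs. The 6 were miR-494-3p, miR-134-5p, miR-376a-2-5p, miR-376c-5p, miR-544a and miR-770-5p, and the 3 were miR-520b, miR-520d-3p and miR-524-3p, of which all but miR-494-3p, miR-134-5p and miR-770-5p were named after their values were seen. Apart from miR-494-3p and miR-134-5p, no probe mean of these members was above 6.33 on either array.

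The chr19 cluster shares seeds with miRNAs that were detected and with miRNAs that were not, and the sequences below show both. The first 4 carry the seed AAAGUGC and the next 4 the seed AAGUGCU. miR-17-5p and miR-20a-5p belong to miR-17-92, and miR-302a-3p and miR-372-3p are active in embryonic stem cells.
miR-519d-3p: cAAAGUGCcucccuuuagagug
miR-526b-3p: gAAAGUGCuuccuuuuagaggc
miR-17-5p: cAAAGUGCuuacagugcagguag
miR-20a-5p: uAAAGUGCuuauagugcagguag
miR-520a-3p: aAAGUGCUucccuuuggacugu
miR-520d-3p: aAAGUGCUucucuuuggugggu
miR-302a-3p: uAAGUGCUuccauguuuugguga
miR-372-3p: aAAGUGCUgcgacauuugagcgu

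The seed AAAGUGC was present on the arrays through miRNAs outside the cluster. All 5 with a matched RefSeq sequence, miR-17-5p, miR-20a-5p, miR-20b-5p, miR-93-5p and miR-106b-5p, were detected with both vectors. The brightest probe of miR-17-5p had a mean signal of 4646 with Ad-NC and 4491 with Ad-uc.372, and that of miR-20a-5p of 5905 and 5327. Their log2 differences after scaling were -0.19 for miR-17-5p, -0.18 for miR-20a-5p, 0.14 for miR-20b-5p, -0.15 for miR-93-5p and -0.43 for miR-106b-5p. The combined SDs between spots were, in that order, 0.23, 0.18, 0.42, 0.34 and 0.16. The median over all 229 miRNAs measured on both arrays was -0.17. The members with the same seed were at background: miR-519d-3p lay between 1.40 and 3.67 with Ad-NC and between 0.91 and 2.12 with Ad-uc.372. miR-526b-3p lay between 0.94 and 3.16 with Ad-NC and between -1.23 and 0.54 with Ad-uc.372. Probes of these members were near 0 on arrays where bright miRNAs with the same seed were present. Whether a shared seed leads to binding on these probes was not tested.

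The seed AAGUGCU was not seen from either side. None of its 3 members with a matched RefSeq sequence, miR-520a-3p, miR-520c-3p and miR-520d-3p, was detected. None of 7 such miRNAs outside the cluster, miR-302a-3p to miR-302d-3p, miR-302e, miR-372-3p and miR-373-3p, was detected either. Members without a matched sequence, such as miR-520b and miR-520e, were not assigned a seed and were also not detected. miR-520c-3p, studied as a promoter of tumour cell invasion, lay between 1.97 and 5.42 with Ad-NC and between 1.85 and 2.16 with Ad-uc.372. miR-517a-3p, a placental miRNA found in maternal plasma, lay between -0.99 and 2.06 with Ad-NC and between 0.14 and 0.37 with Ad-uc.372. miR-512-3p lay between 1.20 and 1.87 with Ad-NC and between 1.63 and 2.09 with Ad-uc.372.

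Seeds were shared more widely within the chr19 cluster than within the chr14 cluster. RefSeq sequences matched 43 of 48 chr19 members, which carried 29 seeds, and 25 of them shared a seed with another member. They matched 92 of 93 chr14 members, which carried 81 seeds, and 21 of them shared one. In the chr14 cluster, 2 members shared a seed with a detected miRNA outside the clusters. miR-329-3p shared ACACACC with miR-362-3p, a miRNA of the X chromosome that was detected with Ad-uc.372 only, and miR-1185-5p shared GAGGAUA with miR-3679-5p, which was detected with both vectors.
miR-329-3p: aACACACCugguuaaccucuuu
miR-362-3p: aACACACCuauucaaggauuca
miR-1185-5p: aGAGGAUAcccuuuguauguu
miR-3679-5p: uGAGGAUAuggcagggaagggga
The brightest probe of miR-362-3p had a mean signal of 16.1 with Ad-NC and 23.2 with Ad-uc.372, while miR-329-3p lay between 1.11 and 1.85 with Ad-NC and between -0.069 and 1.18 with Ad-uc.372. The brightest probe of miR-3679-5p had a mean signal of 21.8 with Ad-NC and 25.6 with Ad-uc.372. The log2 difference of miR-3679-5p was -0.085 with a combined SD between spots of 0.22. With Ad-NC its signal was close to the limit of 21.1, to which dimmer spots were raised, so this difference may partly reflect the limit. miR-1185-5p lay between 0.35 and 2.45 with Ad-NC and between 0.23 and 1.03 with Ad-uc.372. The median GC content was 45.5% in the chr14 members, 47.6% in the chr19 members and 52.2% over all 2248 matched miRNAs. It was 45.5% in miR-494-3p and 59.1% in miR-134-5p. The part of base composition in detection was not tested.

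The normalized log2 table deposited with the arrays holds a fixed low value for undetected miRNAs, -4.71 with Ad-NC and -5.04 with Ad-uc.372. The same 139 members stood at that value on both arrays. Each of them therefore had a difference of -0.33 in that table, 1.25-fold lower with Ad-uc.372, which is the distance between the fixed values and not a measurement of these miRNAs. In the same table miR-134-5p differed by -0.094 and miR-494-3p by -0.18.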

How the data were processed

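RNA of HepG2 cells given Ad-NC or Ad-uc.372 for 48 h was labelled with Cy3 and hybridized to Agilent human miRNA arrays V21.0, 1 array per vector. The authors processed the images with Agilent Feature Extraction, version 10.10 per the submitters' processing notes and 11.5.1.1 per the file headers, on a grid annotated to hg19. The deposited spot intensity is the background-subtracted processed signal, not normalized between arrays. The authors also deposited log2 values, normalized with GeneSpring GX by a method not given in the sources used here.

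Control spots and outlier spots (1273 with Ad-NC, 1657 with Ad-uc.372) were left out, and no spot was saturated. A miRNA was detected where at least 50% of the spots of a probe were flagged well above background. Spots under the dimmest flagged spot of the array were raised to it, log2 intensities were averaged per probe, and the 75th percentile over probes detected on both arrays was subtracted. The difference of a miRNA is the mean over its probes measured on both arrays, and its error is the root of the spot variances, averaged over probes and summed over both arrays. The study's t-test at 1.5-fold could not be run with 1 array per group, and the precision is limited by the number of arrays. The steps were tested on simulated data, in which newly present miRNAs were set well above the limit, so detection of dim miRNAs was not tested.

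Members and lists were chosen with earlier results of these data known. Named were all detected members, members with flagged spots, a fixed list of 32 chr14 and 17 chr19 members on the array, the comparison sets, the markers, and miRNAs sharing a seed with a member. Further names were chosen once values were known: miR-6728-5p, the opposite arms of detected members, miR-520a-3p, miR-1185-5p, and the members that were highest below the limit or carried the lenient flag. RefSeq sequences (GRCh38.p14) matched 2248 of 2549 miRNAs. No coordinates are given, since the array uses another build. Alternatives covered the flag, its share of spots, the limit, outlier spots, scaling, background correction (normexp, limma 3.58.1, offset 50, on median signals), averaging and the deposited table. Python 3.11.15, pandas 2.3.3 and R 4.3.3 were used.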

Additional observations from a re-analysis of the deposited data

How the results depend on the processing

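Of 10 alternatives for detection, 9 left each count of detected members within 1.5 times the value given. The lenient flag, positive and significant, gave 15 chr14 members with Ad-NC and 12 with Ad-uc.372, and 8 and 11 chr19 members. Over all human miRNAs it gave 27.2% and 28.2%. With any flagged spot, 3 chr14 members (3.23%) were detected with Ad-uc.372, miR-665 added, beside 328 of 2549 human miRNAs (12.9%). A limit of mean plus 3 SD of negative control spots, chosen after seeing the data, gave 2 chr14 and 0 chr19 members on each array. Over all 2549 human miRNAs it gave 272 with Ad-NC and 290 with Ad-uc.372. Over 13 alternatives the log2 difference ranged from -0.10 to 0.53 for miR-134-5p and from -0.18 to 0.45 for miR-494-3p. The 75th percentile over all probes, which was the detection limit of each array, gave 0.53 and 0.45, and no scaling gave 0.23 and 0.15. Any flagged spot gave 0.12 for miR-494-3p. These scalings moved all 229 miRNAs by 0.52, 0.23 and 0.19. The members past 1.5-fold numbered 0 under 14 alternatives. With dim probes filtered out, only miR-494-3p and miR-134-5p could be counted, so the chr19 count was fixed at 0. Without that filter, undetected probes mostly took the scaled distance between the limits, -0.52, which is short of 1.5-fold. No paired analysis was possible because each vector has 1 array, and neither leaving out an array nor a block for slide or scan could be fitted. No member was detected on 1 array only, so its bound was not run under other settings. Only miR-665 was, with any flagged spot, where its bound was under 1-fold. With 1 array per vector, and signals of most members under the limit, small changes were not detectable.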
